A study of Arabidopsis thaliana with 79 samples.

Results

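RNA copurified with epitope-tagged ribosomes of the p35S line was compared with total RNA of Arabidopsis seedlings. A set of transcripts, outside the annotated organelle genes, was lower in the p35S RNA in roots and in shoots, under hypoxia and in air. The set was chosen by that difference. It was not low in every tagged line. In root lines of other promoters except pRPL11C, the set medians relative to total RNA lay between -0.34 and 0.37. For each array feature, the mean log2 signal of total RNA was subtracted from the mean log2 signal of ribosome-associated RNA of the p35S line, and a feature was kept where the difference was -0.8 or lower in all 4 combinations of organ and condition. Of 22746 features, 148 met this threshold (0.651%). Among them 58 belonged to plastid- or mitochondria-encoded genes and were left out, as were 3 loci in a chromosome 2 region that holds copies of mitochondrial genes and 6 unnamed features lying between organelle features on the array. The remaining 81 features are described here. The array annotation gave 37 of them 1 nuclear gene each, 2 of them a pair of genes each, and 42 no gene name. The nuclear origin of those 42 was not checked, and 1 of them lies next to a feature of a left-out chromosome 2 locus on the array. The differences that chose the set are given as a description, without a test.

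Immunopurification of tagged ribosomes collects the mRNAs that are bound by ribosomes at the moment of extraction. An mRNA that is abundant in the cell but retained in the nucleus, stored in particles or loaded with few ribosomes is recovered less well than one that is actively translated. Plastid and mitochondrial mRNAs are translated on the ribosomes of those organelles, which carry no tag, so they serve as a measure of how cleanly the tagged cytosolic ribosomes were recovered.

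All plants were 7-day-old Col-0 seedlings carrying a transgene of the form promoter:His6FLAG-RPL18B, a tagged large-subunit ribosomal protein, so there was no untagged plant in any comparison. Whether each line descended from a single transformant was not stated in the sources used here. Hypoxia was 2 h in argon, started when the daily light phase ended, and the air plants stayed in air under the same dim light. Roots and shoots were separated after the treatment. Ribosome-associated RNA came from anti-FLAG beads, and total RNA was extracted from a reserved portion of the same kind of clarified homogenate of p35S plants. RNA of the p35S line was measured on 2 root arrays under hypoxia and 3 in air, and on 2 shoot arrays in each condition. Total RNA was measured on 3 root arrays under hypoxia and 4 in air, and on 3 shoot arrays in each condition. Further promoters were sampled, 9 in roots (pSCR, pSHR, pWOL, pGL2, pSUC2, pSultr2;2, pCO2, pPEP and pRPL11C) and 6 in shoots (pGL2, pRBCS, pSUC2, pSultr2;2, pCER5 and pKAT1), each under hypoxia and in air except pSultr2;2, which was sampled in air alone. These lines gave 57 arrays in 28 groups, with 2 arrays per group and 3 for root pGL2 in air. As background, SCR is active in the endodermis, SHR and WOL in the stele, CO2 and PEP in the cortex, GL2 in the non-hair epidermis of roots and in trichomes, SUC2 in phloem companion cells, RBCS genes in mesophyll, CER5 in the epidermis and KAT1 in guard cells. The pRPL11C line stands for dividing root cells and the pSultr2;2 line for phloem. Of the promoter genes, only CO2 and PEP were named on the array. PEP reached its highest mean among root lines in pPEP, at 10.2 against a median line mean of 7.84, whereas the highest CO2 mean was in pPEP too, at 5.03 against a median of 4.68. The labelled cell types could therefore not be checked for most lines. In roots PEP averaged 5.96 in p35S RNA and 7.8 in total RNA, and CO2 averaged 4.70 and 4.94. How evenly p35S RNA represents the cell types of an organ was not tested.

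Of the 13 total RNA arrays, 4 stood apart. The gap between the 3′ and 5′ parts of the actin control, which widens with shorter cDNA, was 1.82 on replicate 4 of root hypoxia, 1.83 on replicate 4 of root air, 2.08 on replicate 3 of shoot hypoxia and 2.42 on replicate 3 of shoot air, and 3.18 to 4.01 on the other total RNA arrays. The median log2 signal of the 81 features was also higher on those 4 arrays than on the others of their organ, at 9.01 (root hypoxia), 9.15 (root air), 8.42 (shoot hypoxia) and 8.28 (shoot air), against 8.33 to 8.60 on the other root and 7.86 to 8.25 on the other shoot total RNA arrays. The p35S arrays ranged from 7.29 to 7.57 in roots and from 6.86 to 6.97 in shoots, below every total RNA array of their organ. Without the 4 arrays the rule kept 39 features, 34 of them among the 81 and 16 of them among the 37 single genes. Those 16 were AT1G73620, AT5G25560, AT2G06390, AT2G25590, DI21, AT3G50380, AT2G39580, AT3G61010, DI19, AT4G02120, AT1G80800, AT3G26100, AT5G47435, AT1G27870, AT2G42270 and AT3G56080. All 81 differences stayed below 0 in all 4 settings without the 4 arrays. The set medians for p35S, root pRPL11C and shoot pKAT1 are therefore also given without these arrays. Differences of single genes and counts against total RNA include them unless stated.

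In p35S RNA the 81 features had a median log2 signal of 7.32 (root hypoxia), 7.42 (root air), 6.93 (shoot hypoxia) and 6.92 (shoot air), against 8.71, 8.63, 8.04 and 8.15 in total RNA of the same settings. The median difference was -1.22 in root hypoxia, -1.14 in root air, -1.17 in shoot hypoxia and -1.18 in shoot air, where all features had medians of 0.02, 0.01, -0.03 and -0.04. Without the 4 arrays that stood apart, the medians of the set were -1.06, -0.96, -0.92 and -1.10. Every p35S array lay below every total RNA array in all 4 settings for 73 of the 81 features and for 36 of the 37 single genes, beside 649 of all 22746 features. Since the rule used these arrays, the separation describes the set and is no evidence for it. Averaged over the 4 settings, the single genes ranged from -2.12 to -0.88, and 15 of them were at -1 or lower in all 4 settings. Root and shoot differences lay within 0.5 of each other for 29 of the 37 single genes, while 4 were lower by 0.5 or more in root and 4 in shoot. The quartiles of root minus shoot difference were -0.19 and 0.16 for the single genes and -0.17 and 0.26 for all features. A small difference between organs was thus not particular to the set.

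**Figure D1:**
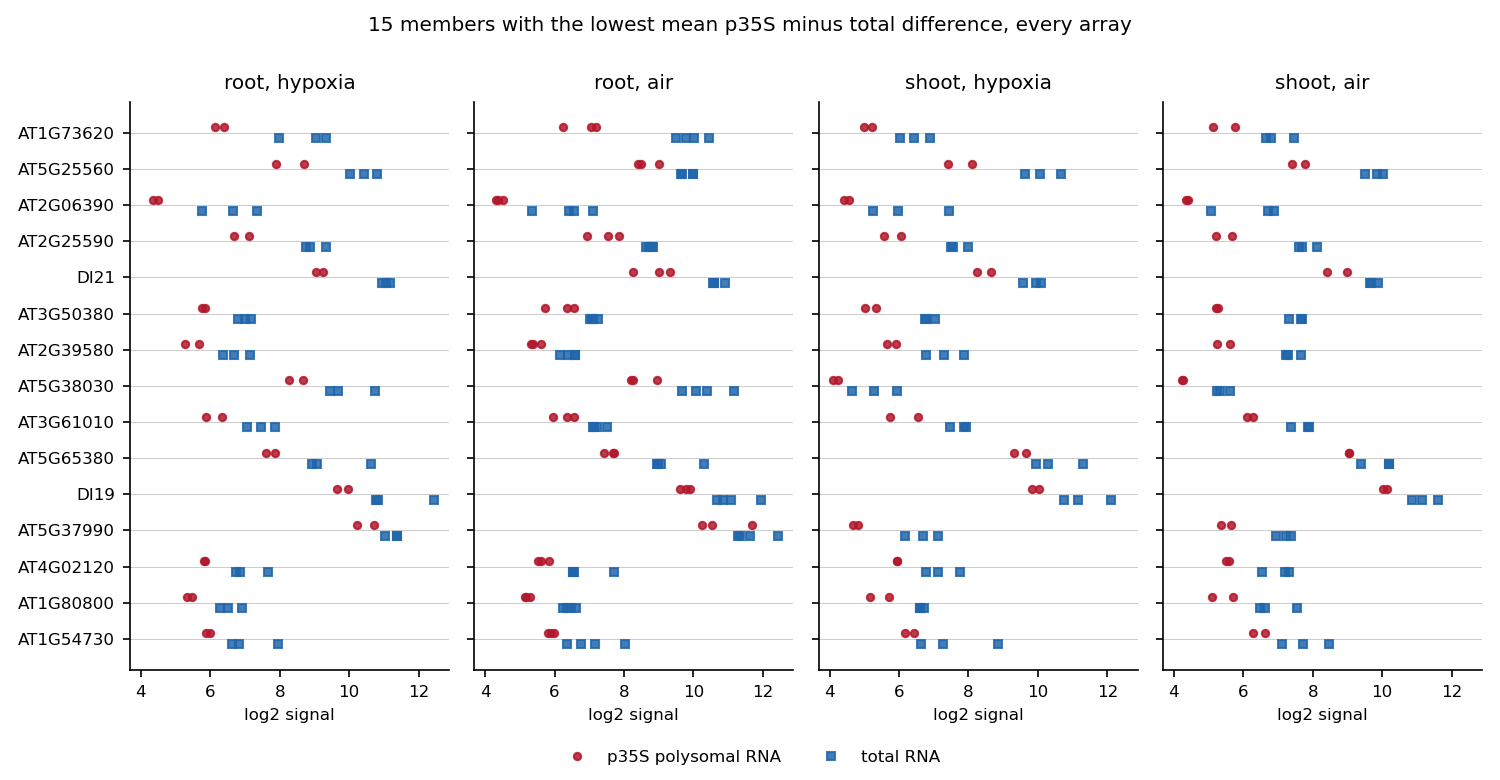
Log2 signal (horizontal axes) of the 15 single-gene features with the lowest mean difference on every p35S (circles) and total RNA (squares) array, by organ and condition; each point is an array. In AT1G73620 the p35S arrays lie between 5.01 and 7.18 and the total RNA arrays between 6.04 and 10.44.

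The lowest mean of the 4 differences was that of AT1G73620, which encodes a thaumatin-like protein, a family of secreted proteins related to pathogenesis-related proteins. Its log2 signal was 6.13 and 6.39 on the p35S arrays of hypoxic roots, against 9.04, 9.32 and 7.98 on the total RNA arrays. In roots in air it was 7.05, 6.23 and 7.18 in p35S RNA, against 9.77, 10.02, 10.44 and 9.49 in total RNA. In shoots the gap was smaller and the groups again did not overlap. There the signal was 5.01 and 5.23 in p35S RNA under hypoxia, against 6.43, 6.90 and 6.04 in total RNA, and 5.13 and 5.77 in air, against 6.66, 6.80 and 7.46. The differences were -2.52, -3.11, -1.33 and -1.53 in root hypoxia, root air, shoot hypoxia and shoot air, with a mean of -2.12.

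AT5G25560, a zinc finger protein of the CHY and RING type, showed the opposite lean between organs. It had 7.90 and 8.70 in p35S RNA of hypoxic roots, against 10.03, 10.42 and 10.82 in total RNA, and 8.50, 8.40 and 9.00 in roots in air, against 9.65, 9.66, 9.99 and 9.99. In hypoxic shoots it had 7.42 and 8.11, against 9.63, 10.07 and 10.67, and in shoots in air 7.42 and 7.77, against 9.50, 9.86 and 10.01. The differences were -2.12, -1.19, -2.35 and -2.20, so roots in air had the smallest gap. AT2G25590, an agenet domain protein, likewise had its smallest gap in roots in air, with -2.08 in root hypoxia, -1.29 in root air, -1.85 in shoot hypoxia and -2.36 in shoot air. Its p35S arrays read 6.70 and 7.12 in hypoxic roots and 6.94, 7.54 and 7.87 in roots in air, against 8.75, 8.88 and 9.34 and 8.80, 8.71, 8.62 and 8.82 in total RNA.

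ATU2AF65A, the large subunit of the splicing factor U2AF that recognises the end of introns, had 9.31 and 9.37 in p35S RNA of hypoxic roots, against 9.91, 10.05 and 10.82 in total RNA. In shoots in air it had 8.43 and 8.95, against 9.76, 10.23 and 10.44. Its 4 differences were -0.91, -0.89, -1.09 and -1.45, in the order root hypoxia, root air, shoot hypoxia and shoot air, the order also used for the genes that follow. Without the 4 arrays that stood apart they were -0.63, -0.69, -0.79 and -1.31. AT2G42270, related to the BRR2 helicase of the U5 small nuclear ribonucleoprotein, had -1.21, -0.93, -1.06 and -1.05. PRH75, a DEAD-box RNA helicase, had differences of -0.92, -0.96, -0.96 and -0.96. They were nearly equal only with the 4 arrays that stood apart, and were -0.65, -0.77, -0.54 and -0.84 without them. AT3G26100, of the RCC1 repeat family, had -1.27, -0.97, -1.47 and -1.18. In both settings shown for ATU2AF65A the p35S arrays lay below the total RNA arrays, which the rule used.

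AT5G38030, AT5G65380 and AT1G15170 are multidrug and toxic compound extrusion (MATE) transporters, a family that moves metabolites and xenobiotics across membranes. AT5G38030 had 8.26 and 8.67 in p35S RNA of hypoxic roots, against 9.69, 9.44 and 10.74 in total RNA, and 4.26 and 4.10 in hypoxic shoots, against 5.29, 4.66 and 5.95. The lowest value of any feature on the arrays was 3.31, so its shoot signal lay near the lower end of the scale. Its differences were -1.49, -1.84, -1.12 and -1.14. AT5G65380 had -1.81, -1.72, -1.02 and -0.89, and the total RNA array of root air replicate 4, one of the arrays that stood apart, read 10.31 beside 8.95, 9.07 and 8.97 on the other arrays. Without the 4 arrays that stood apart, the differences of AT5G65380 were -1.27, -1.39, -0.63 and -0.75. AT1G15170 had -1.22, -0.84, -1.03 and -1.11. AT1G54730, of the ERD6-like sugar transporters, had differences of -1.20, -1.19, -1.28 and -1.32. AT3G45710, of the family of nitrate and peptide transporters, had -1.22, -1.22, -0.87 and -1.05. Without the 4 arrays that stood apart, the shoot hypoxia difference was -0.79 for AT5G38030 and AT3G45710. It was -0.61 for AT1G15170 and -0.65 for AT1G54730. None of the transporters named here met the rule without those arrays. These families have many related genes, and cross-hybridisation between relatives was not tested. The members were not counted by family against all features, so no family is called frequent in the set.

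A pair of members carry the name drought-induced. DI21 had 9.04 and 9.25 in p35S RNA of hypoxic roots, against 11.06, 11.18 and 10.95 in total RNA, and 8.65 and 8.26 in hypoxic shoots, against 9.58, 10.10 and 9.95. Its differences were -1.92, -1.80, -1.42 and -1.02. DI19, a zinc finger protein, had -1.54, -1.37, -1.40 and -1.12. Its total RNA arrays that stood apart read 12.46, 11.94, 12.09 and 11.60, above the 10.68 to 11.16 of the others, while its p35S arrays lay between 9.60 and 10.13.

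Enzymes in the set included AT5G37990, of the SABATH methyltransferases that methylate small molecules such as plant hormones, with differences of -0.80, -0.85, -1.91 and -1.68. AT4G02120, a CTP synthase of pyrimidine nucleotide synthesis, had -1.25, -1.17, -1.27 and -1.48. AT5G47435, a formyltetrahydrofolate deformylase of one-carbon metabolism, had -1.40, -1.14, -1.01 and -1.03, and GPDHp, a plastid-located glycerol-3-phosphate dehydrogenase encoded in the nucleus, had -0.94, -0.997, -0.82 and -1.04. AT5G37990 combined a small root difference with a large shoot one, and its shoot total RNA signal was far below that of roots, at 6.17 to 7.37 against 11.03 to 12.45 in roots.

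AT3G50380, a large protein related to VPS13 lipid-transfer proteins, had -1.20, -0.90, -1.68 and -2.31. AT2G39580 had -1.27, -1.005, -1.54 and -1.95, AT3G61010 had -1.36, -0.95, -1.62 and -1.52, and AT1G80800, which the RefSeq gene table of assembly TAIR10.1 did not hold, had -1.16, -1.22, -1.20 and -1.49. AT2G06390, annotated as a pseudogene of 127 bp, had a different pattern on the arrays that stood apart. It had 4.35 and 4.50 in p35S RNA of hypoxic roots, against 6.67, 7.35 and 5.76 in total RNA, and 4.42 and 4.35 in shoots in air, against 6.72, 6.88 and 5.06. The last value of each total RNA list is the array that stood apart, and here it was the lowest and not the highest. The differences of AT2G06390 were -2.16, -1.96, -1.72 and -1.84.

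Just inside the threshold, by the highest of their 4 differences, were AT5G37990 at -0.803, AT1G16180, a serinc family membrane protein, at -0.823 and GPDHp at -0.824. Just outside were AT4G00040 at -0.795, AT1G22440 at -0.795 and AT1G02260 at -0.791. The set therefore has no gap at its edge. The 44 features without a single gene name had median differences of -1.22, -1.10, -1.16 and -1.21, close to the -1.22, -1.14, -1.18 and -1.12 of the single genes.

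The RefSeq table of assembly TAIR10.1 held 36 of the 37 single genes. They spanned a median of 3564.5 bp, against 2125 bp for all 13331 features with 1 gene, and 20 of the 36 (55.6%) were longer than 3000 bp, against 26.6% of all. Genes above 5000 bp were 16.7% of the set and 5.75% of all, and the longest was AT3G50380 at 14343 bp. At least 4 transcripts were annotated for 9 of the 36 (25.0%), against 8.35% of all, up to 11 for AT1G54730. Overlap with another annotated gene was about as frequent, in 8 of the 36 (22.2%) against 27.3% of all. Spans include introns, and the measured part of each transcript was not used here.

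In the promoter lines, which the rule did not use, the set was low relative to total RNA in some lines and not in others. Relative to total RNA of the same organ and condition, the median of the 81 features was -1.10 under hypoxia and -0.96 in air in root pRPL11C, and between -0.34 and 0.37 in the other root lines. Shoot pRBCS had -1.12 under hypoxia and -1.09 in air, and shoot pGL2 had -0.99 and -1.08 in the same order. Shoot pSUC2 had -0.85 under hypoxia and -1.11 in air, and shoot pSultr2;2 had -0.90 in air. The median was closer to 0 in pCER5, at -0.56 under hypoxia and -0.47 in air, and closest to 0 among the shoot lines in pKAT1, at -0.14 and -0.12. Leaving out the 4 total RNA arrays that stood apart moved these medians upward, to -0.96 and -0.83 in root pRPL11C and to 0.10 and -0.06 in pKAT1. Taken as the equal-weight mean of all promoter lines minus total RNA, 7 of the 81 features were at -0.8 or lower in root hypoxia, beside 1.48% of all features, and 7 in root air, beside 2.31%. In shoots 31 were so under hypoxia, beside 2.8% of all features, and 37 in air, beside 4.15%, and 4 were so in all 4 settings, beside 0.207%. These values share the total RNA arrays with the rule and are descriptions.

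**Figure D2:**
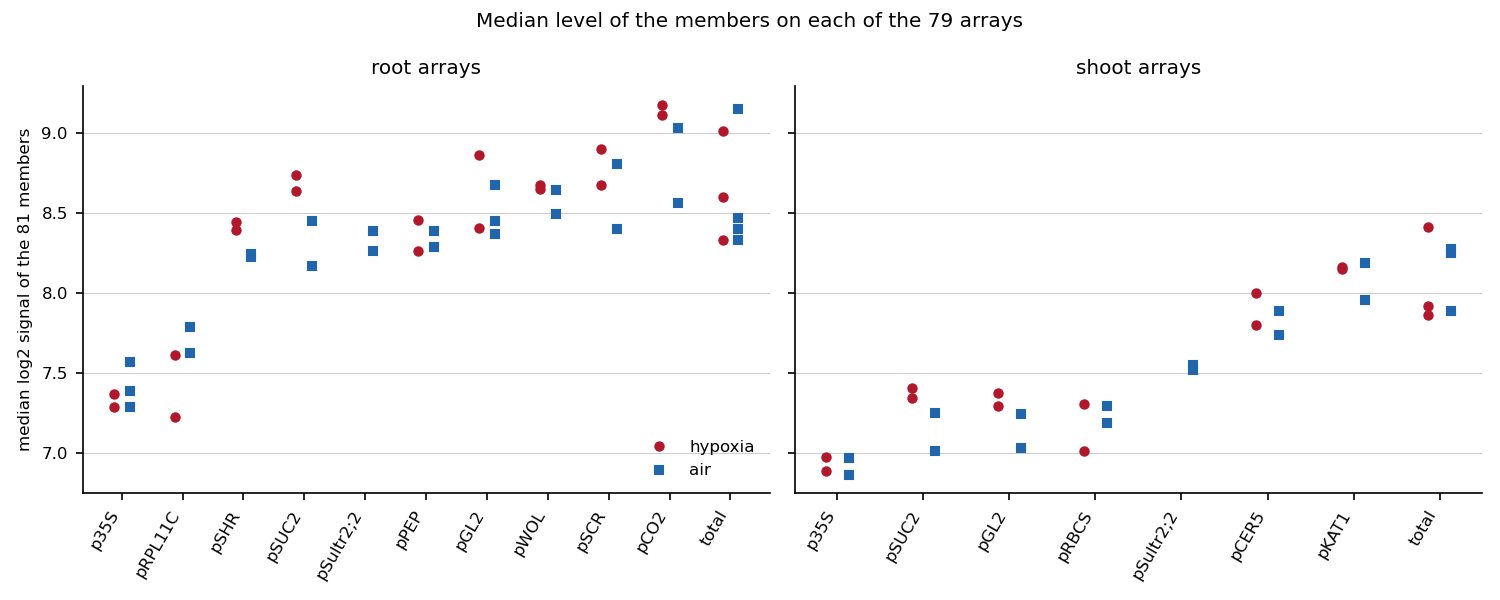
Median log2 signal of the 81 features on each of the 79 arrays, by group; each point is an array. Root pRPL11C arrays (7.23 to 7.79) lie near the root p35S arrays (7.29 to 7.57), whereas the other root lines lie between 8.17 and 9.18. In shoots pKAT1 lies between 7.95 and 8.19, and p35S between 6.86 and 6.97.

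A group of 6 features, 5 of them single genes, was below total RNA in all 28 line groups, beside 145 of all 22746 features. The single genes were AT2G06390, with line differences from -2.33 to -0.95, DI21 from -2.65 to -0.13, DI19 from -1.48 to -0.27, AT5G47435 from -1.50 to -0.33 and AT1G27870 from -1.26 to -0.41. Over the shoot lines in air AT2G06390 averaged 4.44 and AT1G27870 averaged 4.46, near the lower end of the scale. This limits how closely the differences of these genes are known. Other members were above total RNA in root lines. AT5G25560 stood 2.79 above total RNA in pCO2 in air, and AT2G25590 stood 2.47 above it in pCO2 under hypoxia. The same transcript could thus lie below total RNA in p35S and above it in another line of the same organ.

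Other measures differed between these lines too. The median of 112 organelle-gene features relative to total RNA was -1.07 under hypoxia and -1.21 in air in root pRPL11C and -0.98 and -0.996 in root p35S, against -0.23 and -0.08 in pCO2. In shoots it was -0.50 and -0.24 in pKAT1, -1.50 and -1.88 in pCER5, and -2.84 and -2.95 in p35S. The array control for 25S ribosomal RNA averaged 13.3 under hypoxia and 12.1 in air in root pRPL11C, against 14.3 and 14.0 in pCO2 and 13.2 and 12.4 in p35S. In shoots it averaged 14.1 and 13.6 in pKAT1, against 12.6 and 12.2 in p35S. The polyadenylated DapX control read 10.18 to 11.78 under hypoxia in root pRPL11C, against 13.55 to 13.81 in pCO2. In air, root pRPL11C had medians of -1.21 for the organelle genes and -0.96 for the set, and shoot pKAT1 had -0.24 and -0.12. In some root lines these medians lay further apart. In air the organelle median was -0.88 in root pPEP, -0.77 in pSultr2;2, -0.75 in pSUC2 and -0.73 in pWOL, where the set medians were -0.10, -0.20, -0.27 and -0.05. The part of these measures in the results that follow was not tested.

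**Figure D3:**
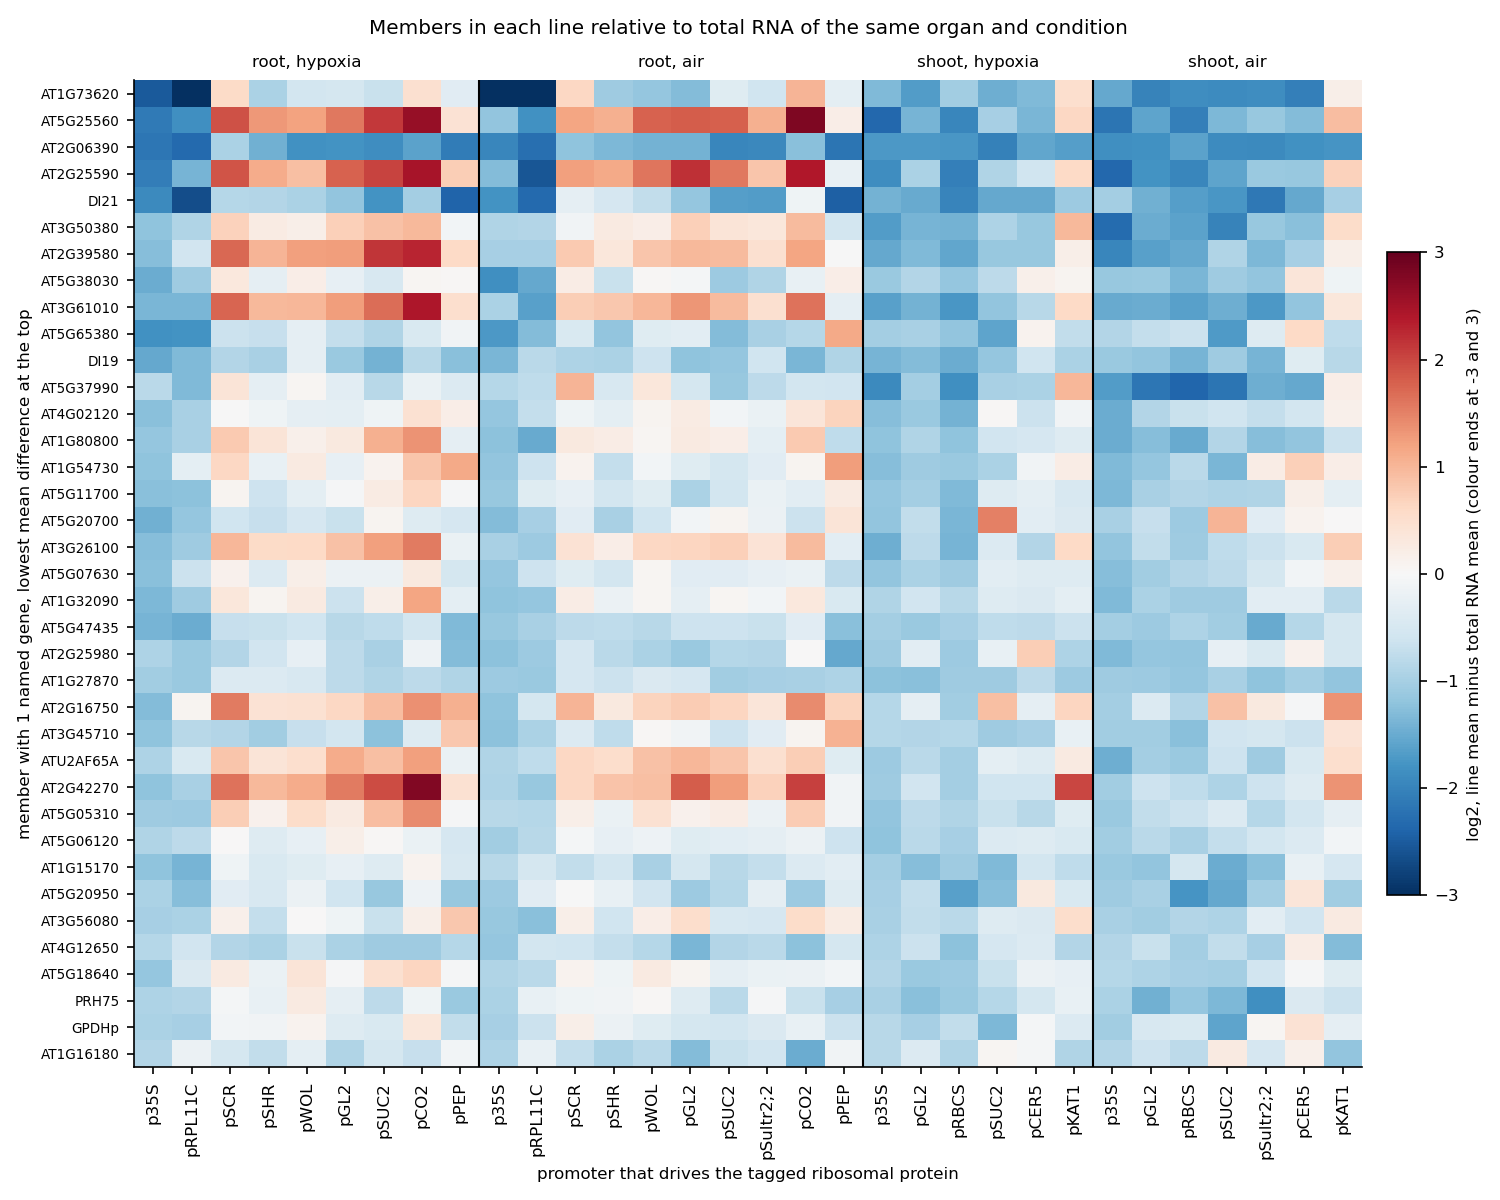
Log2 difference between each promoter line and total RNA of the same organ and condition for the single-gene members (rows) in each line group (columns); colour gives the difference. The p35S, root pRPL11C and most shoot columns are mainly below 0, and the other root columns hold both signs, with AT5G25560 at 2.79 in root pCO2 in air.

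Differences among the promoter lines could be tested, since neither p35S nor total RNA arrays enter those comparisons. In a limma fit over the 57 line arrays, a feature was called where the Benjamini-Hochberg adjusted p over 22746 features was under 0.05 and the log2 difference (or, among several lines, the range of line means) was at least 1. In roots in air, 60 of the 81 features differed among the 9 lines, beside 32.2% of all features, and 27 of the 37 single genes did. In shoots in air, 67 differed among the 6 lines, beside 34.4% of all features, and 29 of the single genes did. Among the 13346 features with a mean signal of at least 6, which include 75 of the 81, the called share of all features was 46.5% in roots and 50.3% in shoots.

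Among the single genes, the ranges in roots were largest in AT2G25590, at 4.97 (adjusted p = 3.54e-12 by limma), AT5G25560, at 4.61 (3.19e-11), and AT1G73620, at 4.51 (6.95e-12). AT3G61010 followed with 3.25 and AT2G42270 with 3.18. In each of these 5 genes pCO2 was the highest line and pRPL11C the lowest. DI21 ranged over 2.32, from pCO2 down to pPEP, and AT5G65380 over 2.46, from pPEP down to pSUC2, so the transporter did not share the order of the others. AT1G80800 ranged over 2.29. The unnamed features reached 4.16 in roots and 4.45 in shoots. Among the single genes in shoots, AT5G25560 ranged over 2.99, AT2G25590 over 2.66 and AT5G37990 over 2.60, each from pKAT1 down to pRBCS. AT3G50380 ranged over 2.57 and AT2G42270 over 2.29, from pKAT1 down to pSUC2, AT1G73620 over 2.25 and AT2G16750 over 2.22. AT5G65380 again differed in order, with its highest shoot mean in pCER5 and a range of 2.29.

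The comparison of pRPL11C with the equal-weight mean of the other root lines was added after the lines' values were seen. In air 32 of the 81 features were lower in pRPL11C, beside 2.39% of all features, and none was higher, beside 2.16% of all. With the adjusted p alone, 48 were lower, beside 8.25% of all features, and 1 was higher, beside 9.1%. Under hypoxia 42 were lower, beside 3.79%, and none was higher, beside 2.19%. With the adjusted p alone, 59 were lower there, beside 15.3%, and none was higher, beside 10.6%. Among the single genes 16 were lower in air and 18 under hypoxia. The median difference of the 81 was -1.06 under hypoxia and -0.79 in air, against 0.01 and 0.00 over all features, and among features with a mean of at least 6 the lower calls were 5.87% and 3.54%. Both pRPL11C groups have 2 arrays.

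Among the single genes, AT2G25590 had the largest difference in air. It read 6.05 and 6.31 on the pRPL11C arrays, against a lowest of 7.70, a median of 10.30 and a highest of 11.21 on the 17 arrays of the other root lines. Both pRPL11C arrays lay below all the others, and the difference was -3.90 (SE 0.28, adjusted p = 1.47e-12 by limma). AT5G25560 read 7.91 and 8.10 in pRPL11C, against 9.41 to 12.64 with a median of 11.32, a difference of -3.27 (SE 0.26, adjusted p = 2.12e-11). AT1G73620 read 6.15 and 6.75, against 8.53 to 10.96 with a median of 9.04, a difference of -3.09 (SE 0.24, adjusted p = 1.49e-11). Neither gene had overlapping groups. AT3G61010 differed by -2.45, the BRR2-related AT2G42270 by -2.15, AT2G39580 by -1.70, AT1G80800 by -1.60 and the RCC1 family AT3G26100 by -1.55.

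Under hypoxia AT5G25560 came first among the single genes. It read 8.50 and 8.65 in pRPL11C, against 10.53 to 13.27 with a median of 11.92 on the 14 arrays of the other root lines, a difference of -3.45 (SE 0.26, adjusted p = 1.04e-11 by limma). AT2G25590 differed by -2.96, AT1G73620 by -2.83, AT3G61010 by -2.74, AT2G42270 by -2.46, AT2G39580 by -2.05, AT3G26100 by -1.88 and AT5G05310 by -1.67. ATU2AF65A was lower in pRPL11C in both conditions, with differences of -1.13 under hypoxia and -1.35 in air, and so was DI21, with -1.36 and -1.26. The hypoxia call of ATU2AF65A was lost without pRPL11C replicate 1 (-0.70, adjusted p = 9.63e-02 by limma).

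In shoots pKAT1 was set against the mean of the other lines, also after the values were seen. In air 29 of the 81 features were higher in pKAT1, beside 4.58% of all features, and none was lower, beside 1.22% of all. Under hypoxia 28 were higher, beside 3.75%, and none was lower, beside 0.769%. With the adjusted p alone, 44 were higher in air, beside 12.7% of all features, and 2 lower, beside 8.2%. Under hypoxia 41 were then higher, beside 10.8%, and 2 lower, beside 6.68%. The single genes gave 13 higher calls in air and 11 under hypoxia. The median difference of the 81 was 0.60 under hypoxia and 0.72 in air, against -0.07 and -0.04 over all features. Among features with a mean of at least 6 the higher calls were 4.86% and 6.08%.

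AT5G25560 read 10.54 and 10.92 on the pKAT1 arrays in air, against 7.70 to 8.66 with a median of 8.35 on the 10 arrays of the other shoot lines. The groups were far apart, and the difference was 2.42 (SE 0.27, adjusted p = 1.19e-08 by limma). AT2G25590 differed by 2.21, AT5G37990 by 2.16, AT1G73620 by 2.12, AT3G50380 by 2.06, AT2G42270 by 2.03, AT3G61010 by 1.83 and AT3G26100 by 1.48. Under hypoxia AT2G42270 came first. It read 8.95 and 9.05 in pKAT1, against 5.79 to 6.79 with a median of 6.31 on the 8 arrays of the other shoot lines, a difference of 2.69 (SE 0.25, adjusted p = 3.81e-10). AT3G50380 differed by 2.19, AT5G37990 by 2.18, AT5G25560 by 2.05, AT3G61010 by 1.90, AT1G73620 by 1.89, AT2G25590 by 1.72 and AT2G39580 by 1.47. Several genes thus stood out in both organs, low in root pRPL11C and high in shoot pKAT1.

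Roots and shoots were compared in air over the lines sampled in both organs, pGL2, pSUC2 and pSultr2;2. In roots 36 of the 81 features were higher, beside 11.5% of all features and 17.2% of those with a mean of at least 6, and 1 was lower, beside 9.3%. The single genes gave 17 higher and 0 lower calls. By the adjusted p alone 57 of the 81 were higher, beside 30.7% of all features, and 7 lower, beside 30.6%. The median difference was 0.91, against -0.05 over all features.

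The methyltransferase gene AT5G37990 read 10.29 to 11.39 with a median of 10.88 on the 7 root arrays, against 4.61 to 5.72 with a median of 5.22 on the 6 shoot arrays. The groups did not overlap, and the difference was 5.62 (SE 0.15, adjusted p = 2.26e-26 by limma). The MATE transporter AT5G38030 differed by 5.36, with 8.72 to 10.47 in roots against 4.15 to 4.41 in shoots, and AT3G45710 by 5.26, with 10.25 to 11.34 against 4.91 to 5.87. The shoot arrays of AT5G38030 lay near the lower end of the scale. Those of AT5G37990 and AT3G45710 lay below the lowest array median of 6.31. This limits how closely the sizes of these differences are known. AT1G73620 differed by 4.11, AT2G25590 by 3.97, the jacalin lectin AT2G25980 by 3.52, AT2G16750 by 3.23 and AT5G25560 by 2.95. In air the shoot lines used here had set medians of -1.08 (pGL2), -1.11 (pSUC2) and -0.90 (pSultr2;2) relative to total RNA, where the root lines had -0.24, -0.27 and -0.20, and the part of this in the organ difference was not tested. In these samples of many cells, fewer cells of a type and less RNA per cell cannot be told apart.

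Averaged over the 8 root lines sampled in both conditions, 7 of the 81 features were higher under hypoxia, beside 3.08% of all features, and 2 were lower, beside 1.49%. Among features with a mean of at least 6 these shares were 4.65% and 2.28%. With the adjusted p alone 34 were higher, beside 18.3% of all features, and 16 lower, beside 26.2%. Over the 5 shoot lines 1 feature was higher, beside 1.46%, and none was lower, beside 0.277%, and by the adjusted p alone 9 were higher, beside 8.45%, and 5 lower, beside 10.2%. The median change of the 81 was 0.15 in roots and 0.02 in shoots, against -0.01 for all features in both organs.

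Among single genes AT2G39580 was the one called higher in roots, at 5.86 to 9.43 with a median of 7.97 on the 16 hypoxia arrays, against 5.34 to 7.79 with a median of 7.04 on the 17 air arrays. The ranges overlap because they span the lines, and the difference within lines averaged 1.01 (SE 0.13, adjusted p = 1.05e-07 by limma). It was above 0 in each of the 8 lines, from 0.58 in pGL2 to 1.50 in pSUC2, and 0.03 in p35S and 0.30 in total RNA. AT1G73620 was the one called lower, at 5.66 to 9.80 with a median of 8.18 under hypoxia, against 6.15 to 10.96 with a median of 8.99 in air. Its change averaged -1.03 (SE 0.11, adjusted p = 1.53e-09), from -1.70 in pCO2 to -0.36 in pGL2, and was -0.56 in p35S and -1.15 in total RNA. Both changes lie close to the limit of 1, and they fell short of it with 50 added to the linear signal, at 0.78 for AT2G39580 and -0.91 for AT1G73620. Leaving out any of 15 single arrays also took AT2G39580 below it, to between 0.94 and 1.00, and leaving out any of 5 took AT1G73620 to between -0.99 and -0.95. The feature shared by AT1G18020 and AT1G17990 was also higher in roots, by 1.13.

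**Figure D4:**
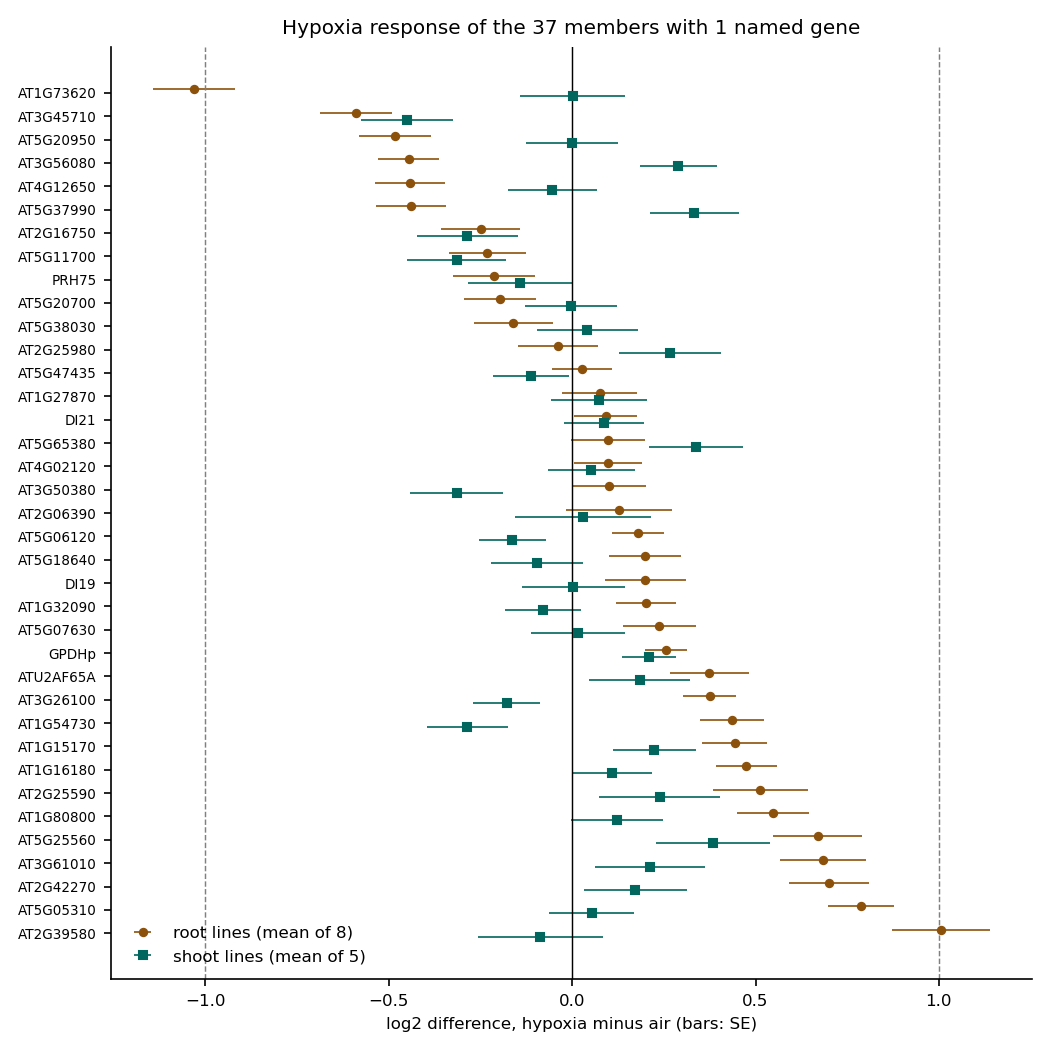
Hypoxia minus air log2 difference of the single-gene members averaged over root lines (8 lines) and over shoot lines (5 lines), with standard errors from the limma fit. AT2G39580 lies at 1.01 and AT1G73620 at -1.03 in roots, the only single genes past a change of 1.

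The root and shoot responses were compared directly in pGL2 and pSUC2. One of the 81 features was higher in roots than in shoots, beside 1.64% of all features, and 1 was lower, beside 1.39%. By the adjusted p alone 4 were higher, beside 2.72%, and 2 lower, beside 3.19%. AT3G56080 read 5.87 to 6.69 under hypoxia in roots, against 6.25 to 7.81 in air, while in shoots it read 5.88 to 6.47 under hypoxia, against 5.71 to 6.00 in air. Its response in roots minus that in shoots was -1.23 (SE 0.23, adjusted p = 5.86e-04 by limma), and -0.80, short of 1, with 50 added to the linear signal. The feature shared by AT1G18020 and AT1G17990 had a response 1.36 higher in roots (SE 0.37, adjusted p = 1.97e-02 by limma). The count of features with a higher root response was 0 without hypoxic root pGL2 replicate 2 or air shoot pSUC2 replicate 2, and 5 without hypoxic root pGL2 replicate 1.

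Responses differed among the root lines for 5 of the 81 features, beside 4.26% of all, and among the shoot lines for 1 unnamed feature, beside 1.7%. The shares among features with a mean of at least 6 were 5.61% and 1.63%. AT5G20950, a glycoside hydrolase of family 3 that acts on cell wall sugars, changed by 0.54 in pCO2 and by -1.34 in pRPL11C, a range of 1.88 (adjusted p = 1.54e-02 by limma). AT5G11700 changed by 0.50 in pCO2 and by -1.32 in pRPL11C, a range of 1.82 (adjusted p = 2.97e-02). AT5G65380 changed by 0.70 in pSHR and by -1.03 in pPEP, a range of 1.73 (adjusted p = 4.42e-02). The calls of AT5G11700 and AT5G65380 were lost without any of 6 and any of 23 single arrays. Both were also lost in the fit of all 79 arrays (adjusted p = 3.24e-01 for each by limma). With quantile normalization AT5G65380 was lost too (adjusted p = 5.77e-02 by limma). The call of AT5G20950 was lost without hypoxic root pCO2 replicate 2 (adjusted p = 5.05e-02 by limma).

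None of the members was on lists of circadian clock genes, splicing regulators of the SR family, genes with conserved upstream open reading frames, noncoding RNAs or core hypoxia genes. The array named 1 of 10 clock genes, 0 of 21 SR genes, 4 of 13 upstream open reading frame genes, 0 of 7 noncoding RNAs and 2 of 12 core hypoxia genes. Upstream open reading frames limit translation of the main frame, and SAMDC1, a polyamine synthesis gene with such a frame, had p35S minus total differences of -0.70, -0.63, -0.07 and -0.02. The clock gene GI had -0.34, -0.64, -0.05 and -0.09. Neither reached the threshold in any setting. Both named core hypoxia genes, HRA1 and CML38, were higher under hypoxia in roots and in shoots, with a median log2 change of 6.51 and 5.14.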

How the data were processed

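Arabidopsis ATH1 arrays were analysed from the deposited log2 values, made by the authors with RMA per the submitters' processing notes. Whether the 79 arrays were normalized together is not stated there. After 64 control features were left out, 22746 were tested. Members followed the rule given in the report. They, the gene lists and the comparisons were chosen with earlier results of these data known. Fits used limma 3.58.1 in R 4.3.3 on the 57 promoter line arrays, 1 mean per group with eBayes and Benjamini-Hochberg adjustment. The fit was tested on simulated data. Replicates were labelled as independent experiments. Named genes are the 15 single-gene members with the lowest mean difference, 3 on each side of the threshold, up to 8 per comparison and direction among those called, and up to 4 of each role group. Others named (AT5G47435, AT1G27870, AT1G15170, AT5G06120, AT5G07630 and the 2-gene feature) were chosen after their values were seen. The number of arrays limits precision. Alternatives were thresholds of -0.6 and -1, group medians, quantile normalization, 50 added to linear signal, filters on low values, all 79 arrays, eBayes with trend, adjusted p alone, a replicate block and leaving out each array. Gene names came from the platform annotation and from RefSeq TAIR10.1.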

Additional observations from a re-analysis of the deposited data

Results flagged for a closer look

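On replicate 4 of root total RNA in air, 6 single-gene members had a log2 signal far from the other 3 arrays of the group, by Dixon's criterion at the 95% level, which chance passes in about 1 in 20 groups. These values were 10.91 for DI21, 10.31 for AT5G65380, 7.72 for AT4G02120, 7.14 for AT5G07630, 8.50 for AT5G06120 and 6.94 for AT1G15170, each the highest of its group. This array is one of the 4 total RNA arrays that stood apart by their actin control, and the member count without those 4 was 39.

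The hypoxia response differed between root and shoot, by the fit's own test of the difference, for the feature of AT1G18020 and AT1G17990 (1.36 higher in roots) and for AT3G56080 (-1.23). It differed among the root lines, by the F-test, for AT5G20950 with a range of 1.88, AT5G11700 with 1.82 and AT5G65380 with 1.73.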

How the results depend on the processing

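The number of members was 81 by the rule and moved most with its own settings. It was 252 at a threshold of -0.6, 26 at -1, 53 with group medians, 27 with 50 added to the linear signal, 53 with a total RNA mean of at least 7 in all settings, and 39 without the 4 total RNA arrays that stood apart, an alternative added after the data were seen. Leaving out single p35S or total RNA arrays gave 49 (without shoot hypoxia total RNA replicate 3) to 95. Keeping the unnamed features between organelle features gave 87, and keeping the chromosome 2 loci 84. Quantile normalization gave 2 members lower in root than shoot in air. With 50 added to the linear signal, 4 were higher and 1 lower under hypoxia in roots, and 0 had a lower response in root than shoot. In the fit of all 79 arrays 3 responses differed among root lines and 0 among shoot lines. Those 3 included AT5G20950 but not AT5G11700 or AT5G65380.

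With the adjusted p alone, 34 were higher and 16 lower under hypoxia in roots, 9 and 5 in shoots, 4 and 2 in root against shoot response, and 57 and 7 in root against shoot level. Then 1 was higher in pRPL11C in air, 44 were higher and 2 lower in pKAT1 in air, and 2 lower in pKAT1 under hypoxia. The replicate numbers were not taken as pairs, since the same-number correlation of deviations (-0.23 to 0.59) was above 0.1 in 8 of 13 lines and not in the other 5. Pairing within some lines is not excluded. With a replicate block, 8 responses differed among root lines and 2 among shoot lines, with adjusted p = 1.07e-01 for AT5G11700 and 9.65e-02 for AT5G65380 by limma. Leaving out single arrays gave 1 to 2 lower and 6 to 8 higher under hypoxia in roots, 1 to 2 higher in shoots, 0 to 5 higher and 1 to 4 lower in root against shoot response, 2 to 9 responses different among root lines, 0 to 1 among shoot lines, and 0 to 1 lower in pKAT1 in air. The lower calls in pRPL11C ranged from 30 to 33 in air and 33 to 48 under hypoxia, and the higher calls in pKAT1 from 24 to 31 and 25 to 28. No direction reversed under the alternatives run. Of 137 called results on single members, 90 were called under every alternative, and 50 added to the linear signal removed 35. The causes were not tested. Values near background limit the differences of weakly detected members.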
